A study of Mus musculus with 12 samples.

Results

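30s is a line of mouse lymphoma cells in which Runx1 cannot be excised. Its cultures with and without earlier interferon β (IFNβ) were compared here across the whole transcriptome. The 6 arrays of 30s cells were taken of the 12 arrays of the series, 3 cultures treated with IFNβ and 3 treated with vehicle, and 30098 genes were compared. The line was established from a C57BL6/CBA mouse (spleen) carrying Mx1Cre, the EµMyc transgene, a heterozygous p53 loss (p53+/-) and unmodified Runx1 alleles (Rx1WT/WT). EµMyc drives Myc from the immunoglobulin heavy chain enhancer in B-lineage cells, and Mx1Cre drives Cre recombinase from the interferon-inducible Mx1 promoter. Cultures received 50 U/ml IFNβ or a vehicle of PBS and BSA for 72 hours and were then grown in fresh medium for 6 days. The arrays read the cells at that time only, and none was taken during the treatment. The study's methods give a range of IFNβ doses that ends at the dose in the labels. The study reports that its established lines lacked functional p53, most having lost the wild-type allele. Its text does not single out 30s. The other 6 arrays, from the floxed Runx1 line 3s under the same 2 treatments, served to estimate the spread and to compare the responses.

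Both groups carry Mx1Cre, so changes from interferon itself and from induced Cre cannot be told apart. 30s is 1 line, and its 3 replicates per group are cultures of that line, so the p-values measure the spread between cultures. That spread was pooled over the cultures of 30s and 3s. The genotype label of the samples follows the treatment in both lines, with floxed Runx1 given for every IFNβ-treated array and wild type Runx1 for every vehicle array. Groups were therefore set by cell name and treatment alone. Values are log2 probe set intensities after RMA (robust multi-array averaging), and a change is the log2 fold change of IFNβ over vehicle. A gene was said to rise, fall or change at a Benjamini-Hochberg adjusted p under 0.05 over all 30098 genes in limma's test on all 12 arrays.

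Type I interferons act through the receptor Ifnar1 and Ifnar2 and the kinases Jak1 and Tyk2 on transcription factors such as Stat2 and Irf9, which bind the interferon-stimulated response element in the promoters of antiviral genes. In lymphocytes this response is transient, and genes such as Mx1, Isg15 and Ifit1 return to a low level once the cytokine is gone. Mx1Cre uses this response to switch on Cre, and the recombination that Cre makes in floxed alleles is permanent.

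The interferon-stimulated response element was searched as GAAA, 2 bases of any kind and GAAA again, on either strand, in RefSeq promoters of the GRCm38.p6 build, which run from 250 bases before to 50 bases after each gene start. It was found in 3.44% of 32851 promoters, and in a promoter of 697 of 18028 genes tested (3.87%). Of the 39 genes of the interferon-stimulated list that have a promoter in the table, 22 (56.4%) carried it. A promoter of 9 of 164 genes that rose (5.49%) and of 2 of 101 genes that fell (Rnase6 and Fcrla, 1.98%) carried it. Promoters of 3 of the genes that rose are shown because they belong to families linked to interferon, namely Ifih1, which encodes the cytoplasmic sensor of double-stranded RNA MDA5, the PHD finger gene Phf11a and the Schlafen gene Slfn9. Ifih1 was named by rule, and Phf11a and Slfn9 were chosen after their values were seen. The other genes that rose and had a match were Gpn3, Hax1, Mocs3, Psmd9, Tdp1 and Wdr31. Capitals mark the match to the motif.
Ifih1 (chr2:62646206-62646505, minus strand): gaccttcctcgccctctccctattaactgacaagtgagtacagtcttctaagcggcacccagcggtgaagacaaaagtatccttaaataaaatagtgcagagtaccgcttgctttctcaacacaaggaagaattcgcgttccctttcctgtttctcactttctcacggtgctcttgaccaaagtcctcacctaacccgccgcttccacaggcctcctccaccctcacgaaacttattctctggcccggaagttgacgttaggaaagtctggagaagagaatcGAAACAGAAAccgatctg
Phf11a (chr14:59297473-59297772, minus strand): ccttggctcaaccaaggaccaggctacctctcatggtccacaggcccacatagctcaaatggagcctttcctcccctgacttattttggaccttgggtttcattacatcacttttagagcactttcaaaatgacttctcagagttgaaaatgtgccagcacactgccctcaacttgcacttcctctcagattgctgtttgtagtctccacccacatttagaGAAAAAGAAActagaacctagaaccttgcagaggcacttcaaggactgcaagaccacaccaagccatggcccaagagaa
Slfn9 (chr11:82991781-82992080, minus strand): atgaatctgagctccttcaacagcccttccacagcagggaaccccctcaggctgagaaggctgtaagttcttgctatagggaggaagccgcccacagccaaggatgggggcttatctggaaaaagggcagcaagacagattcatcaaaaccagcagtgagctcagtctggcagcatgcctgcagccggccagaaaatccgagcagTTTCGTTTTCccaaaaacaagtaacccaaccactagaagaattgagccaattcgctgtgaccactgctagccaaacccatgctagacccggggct
The match starts 32 bases after the gene start in Ifih1, 29 bases before it in Phf11a and 45 bases before it in Slfn9. In Slfn9 the motif is on the opposite strand. A match is a description of the letters and not a measured site. Ifih1 read 6.99, 7.08 and 6.98 after IFNβ and 6.48, 6.78 and 6.52 with vehicle, a change of 0.42 ± 0.08 (SE, limma adjusted p = 0.038). Phf11a read 9.54, 9.62 and 9.65 against 9.23, 9.27 and 9.0 (0.44 ± 0.08, adjusted p = 0.022). Slfn9 read 9.46, 9.41 and 9.47 against 9.16, 9.07 and 9.06 (0.35 ± 0.06, adjusted p = 0.023). For all 3 genes every IFNβ-treated culture lay above every vehicle culture. Leaving out 1 array at a time ended the call of Ifih1 for 8 of the 12 arrays, of Phf11a for 4 and of Slfn9 for 5.

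Of 30098 genes, 346 changed in 30s cells (1.15%), of which 196 rose (0.651%) and 150 fell (0.498%). The rises were small, with a median log2 fold change of 0.31, and the falls larger, with a median of -0.47. Of the 69 genes that changed more than 1.5-fold, 61 fell and 8 rose, and all 20 that changed more than 2-fold fell. The median over all genes was 0.01. The shares of all genes include dim genes, as 57.4% of all genes had a mean under 6 but held 32 of the 346 calls. Of the 8207 genes with means above 8, 132 rose and 75 fell, and their median change was 0.05. The part of brightness in the shares of the gene lists below was not tested. The 61 larger falls comprised 24 immunoglobulin kappa variable (Igkv) genes, 9 X-linked genes and 28 others. In cultures of a whole line, a lower signal in every cell and fewer cells with the signal cannot be told apart.

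In all 346 genes the 3 IFNβ-treated cultures lay beyond the 3 vehicle cultures, which was so for 18.7% of all genes. Non-overlap of a single gene that passed therefore adds nothing to its call. Past the study's thresholds, an unadjusted p under 0.05 (here limma's) and its fold change cut-off, were 587 genes (1.95%), 257 higher and 330 lower. At an unadjusted p under 0.05 alone, 2601 genes were higher (8.64%) and 1465 lower (4.87%). When the 6 arrays of 30s cells were fitted without the 3s arrays, 0 genes passed, although the lowest adjusted p was 0.0503, reached by 38 genes. In that fit 3799 genes had an unadjusted p under 0.05, among them all 346, and 324 had an adjusted p under 0.1 (174 higher, 150 lower). The methods' t-test gave 3562 genes at an unadjusted p under 0.05, and 443 past the study's thresholds. After adjustment that t-test gave 1, the kinesin gene Kif7, which was not among the 346 (change -0.12). Normalisation moved the split of the calls, to 117 higher and 171 lower after quantile normalisation, 106 and 177 after cyclic loess and 246 and 133 after median centring. Leaving out any 1 array of 30s cells left 97 to 209 genes, the fewest without IFNβ replicate 1. Without any 1 of the 12 arrays, 81 genes kept the call, 24 that rose and 57 that fell, and 14 of these are Igkv genes.

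**Figure D1:**
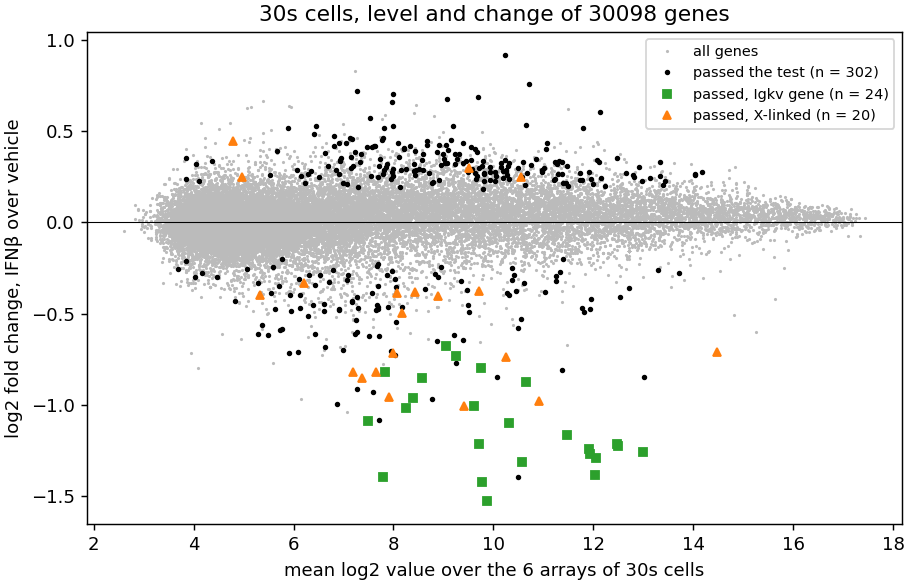
Mean log2 value over the 6 arrays of 30s cells (horizontal) against the log2 fold change of IFNβ over vehicle (vertical) for 30098 genes, with the 346 that passed the test marked. Of the genes that passed, 17 Igkv genes and 3 others (Cd36, Rnase6 and Maoa) lie below -1 and none above 1.

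The largest fall outside the immunoglobulin genes was that of Cd36, which encodes the scavenger receptor and fatty acid translocase. It read 9.56, 9.77 and 10.07 after IFNβ and 11.20, 11.27 and 11.11 with vehicle. The cultures did not overlap, and the change was -1.39 ± 0.10 (limma adjusted p = 0.00076), a 2.63-fold lower signal. The call of Cd36 held without any 1 of the 12 arrays. Tfpi, the inhibitor of tissue factor-driven coagulation, read 6.61, 6.91 and 6.89 against 7.79, 7.59 and 7.77 (-0.92 ± 0.10, adjusted p = 0.0028). Ulbp1, a ligand of the natural killer receptor NKG2D, read 6.94, 7.13 and 7.30 against 8.19, 8.07 and 7.90 (-0.93 ± 0.09, adjusted p = 0.0018). Both were lower in every IFNβ-treated culture, and both calls held without any 1 array.

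Rnase6, a secreted ribonuclease of the RNase A family, had the widest spread between treated cultures (SD 0.57) of the 15 largest falls outside the immunoglobulin genes. It read 7.02, 6.70 and 7.80 after IFNβ and 8.05, 8.32 and 8.39 with vehicle (-1.08 ± 0.22, adjusted p = 0.048), and the third treated culture lay near the vehicle cultures. Its call held only when that culture was left out and was lost without any 1 of the other 11 arrays. Ifi30, the lysosomal thiol reductase that unfolds antigens, read 12.49, 12.54 and 12.76 against 13.39, 13.42 and 13.52 (-0.85 ± 0.08, adjusted p = 0.0016) and kept its call throughout. Across the 150 genes that fell, IFNβ replicate 3 was the treated culture nearest to the vehicle mean in 102, against 20 for replicate 1 and 28 for replicate 2. Among the 196 that rose the numbers were 78, 26 and 92.

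**Figure D2:**
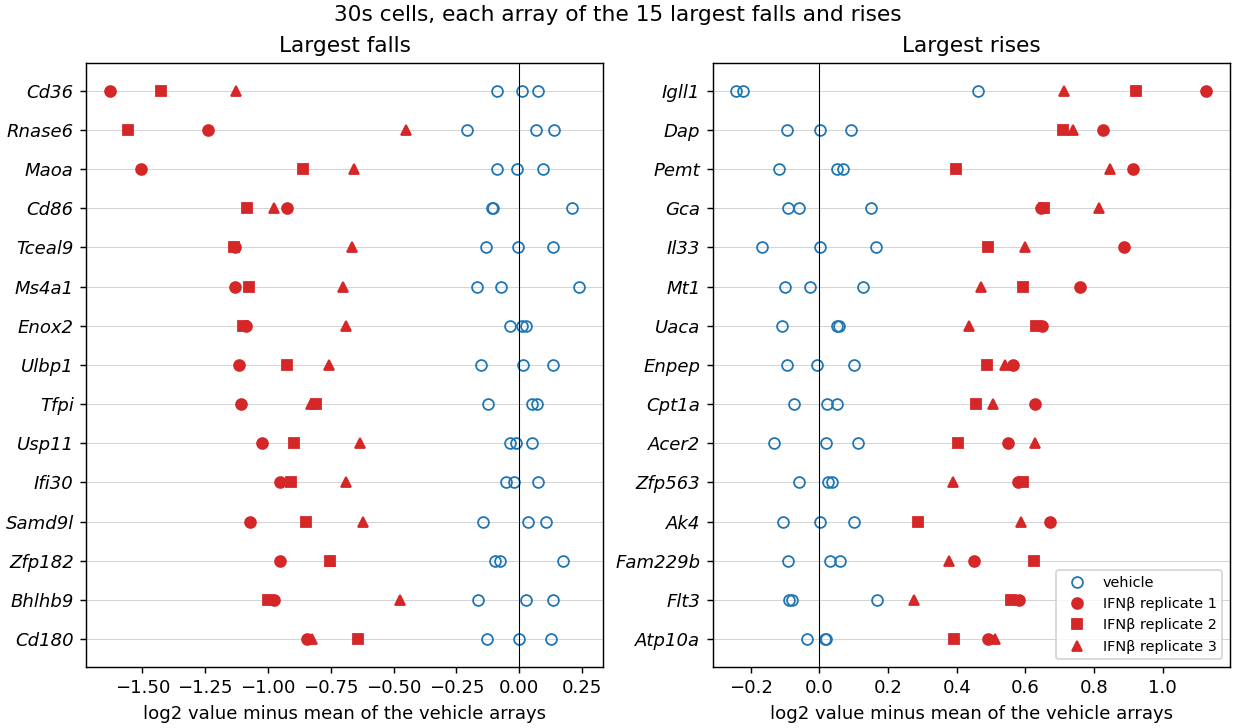
Each array of 30s cells for the 15 largest falls and the 15 largest rises outside the immunoglobulin V genes, as the log2 value minus the mean of the 3 vehicle arrays (horizontal), with vehicle arrays as open circles. The treated cultures lie apart from the vehicle cultures in every row because the genes were picked by that rule. In most falls IFNβ replicate 3 lies nearest to the vehicle cultures.

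Several genes of the list of B cell surface molecules fell. Of 29 measured members of that list, 7 fell and 0 rose, against 0.498% and 0.651% of all genes, and the list's median change was -0.07 beside 0.01 over all genes. Cd86, the costimulatory ligand of CD28, read 6.44, 6.28 and 6.39 after IFNβ and 7.26, 7.26 and 7.58 with vehicle (-0.99 ± 0.09, adjusted p = 0.0016). Ms4a1, which encodes CD20, read 8.12, 8.18 and 8.55 against 9.18, 9.08 and 9.49 (-0.97 ± 0.13, adjusted p = 0.0063). Neither gene overlapped between the groups. Cd180, a Toll-like receptor homologue of B cells, read 8.79, 9.0 and 8.81 against 9.77, 9.51 and 9.64 (-0.77 ± 0.09, adjusted p = 0.0031). Tnfrsf13c, the receptor for the survival factor BAFF, read 8.57, 8.46 and 8.60 against 9.19, 9.12 and 9.28 (-0.65 ± 0.07, adjusted p = 0.0028). The calls of these 4 genes held without any 1 array. The other 3 were Cd37 (-0.41), Siglecg (-0.31) and Fcrla (-0.26), with smaller falls, whose calls were lost for 4, 4 and 10 of the 12 arrays left out. Of the 8 measured markers of the B lineage, Ms4a1 was the 1 that passed (12.5%), and at an unadjusted p under 0.05 1 was higher and 2 lower. The 7 that did not pass included Cd79a (-0.07), Cd22 (0.07) and Cd72 (-0.03). Of 5 plasma cell markers limma called 0, with 2 higher and 0 lower at an unadjusted p under 0.05, namely Jchain (0.15) and Mzb1 (0.19). At that p 8.64% of all genes were higher and 4.87% lower. The summed linear level of the 5 markers was 15455 to 16249 after IFNβ and 13403 to 14238 with vehicle. Of the 5 markers, 4 had means under 6 and 1 above 8, so the sum rests almost wholly on 1 gene. The part of plasma cells in these falls was not tested. In the wider list of 12 plasma cell genes 0 passed and 2 were higher at an unadjusted p under 0.05 (median 0.05).

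Of 25 measured genes of B cell receptor signalling, 3 fell (12%) and 0 rose (median -0.04), beside 0.498% and 0.651% of all genes. They were the tyrosine kinase Syk (-0.30 ± 0.05, adjusted p = 0.029), the protein kinase C gene Prkcb (-0.32 ± 0.06, adjusted p = 0.042) and Ptpn6, the phosphatase SHP-1 that restrains the receptor (-0.37 ± 0.06, adjusted p = 0.012). Ptpn6 read 10.15, 10.25 and 10.39 against 10.65, 10.67 and 10.59. Of 25 B cell transcription factors, 1 fell (4%) and 0 rose. The gene that fell, the Ets factor gene Spib, read 8.05, 7.87 and 7.90 against 8.43, 8.33 and 8.45 (-0.46 ± 0.10, adjusted p = 0.049). Leaving out 1 array ended the call of Spib for 11 of the 12 arrays, of Prkcb for 9, of Syk for 5 and of Ptpn6 for 1 (vehicle replicate 2). The call of Spib held only without 3s IFNβ replicate 1. Median centring ended the calls of Spib and Prkcb, and robust moderation that of Spib.

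Genes of early B cells and of the pre-B cell receptor moved in both directions. Of 16 measured, 2 rose and 1 fell (18.8%, median 0.01), beside 1.15% of all genes. Igll1, which encodes the λ5 part of the surrogate light chain, read 10.90, 10.70 and 10.49 after IFNβ and 10.24, 9.56 and 9.54 with vehicle. The groups did not overlap, but vehicle replicate 1 lay close to the treated cultures. The change of 0.92 ± 0.19 had an adjusted p of 0.049 in limma, and its call held only without that vehicle culture and was lost after quantile normalisation, cyclic loess or robust moderation. The partners of Igll1 in the surrogate light chain, Vpreb1 (0.12) and Vpreb2 (0.08), did not pass. Flt3, a receptor kinase of early progenitors, read 7.15, 7.12 and 6.84 against 6.48, 6.73 and 6.48 (0.47 ± 0.09, adjusted p = 0.031), and leaving out 1 array ended its call for 5 of the 12. Bst1, the ectoenzyme CD157, fell by 0.29 on the log2 scale (adjusted p = 0.04), and its call was lost for 10 of the 12. Enpep, the aminopeptidase known in mice as the pre-B antigen BP-1, read 6.74, 6.67 and 6.72 against 6.28, 6.17 and 6.09 (0.53 ± 0.09, adjusted p = 0.018). Its call was lost for 5 arrays, each of the IFNβ replicates and vehicle replicates 2 and 3.

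The most numerous falls were in Igkv genes, the variable segments of the kappa light chain that lie together on chromosome 6. Of 86 measured, 24 fell (27.9%) and 0 rose, beside 0.498% and 0.651% of all genes, and the median change was -0.28. Igkv1-133 read 8.91, 8.84 and 9.54 after IFNβ and 10.77, 10.55 and 10.56 with vehicle (-1.53 ± 0.17, adjusted p = 0.003). Igkv1-135 read 8.97, 8.75 and 9.47 against 10.49, 10.54 and 10.43 (-1.42 ± 0.19, adjusted p = 0.0074). Igkv4-68 read 6.69, 6.99 and 7.64 against 8.22, 8.59 and 8.68 (-1.39 ± 0.20, adjusted p = 0.0086). In each of these the treated cultures lay wholly below the lowest vehicle culture, and IFNβ replicate 3 was the highest of the treated.

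The Igkv4 family carried 17 of the 24 falls. Of its 25 measured genes 22 had an unadjusted p under 0.05 and a lower value, beside 4.87% of all genes. The family's median change was -1.04. Taken per culture, the median of the 25 genes against the vehicle mean was -1.31, -1.19 and -0.79 after IFNβ and -0.12, -0.02 and 0.10 with vehicle. The fall was thus smallest in IFNβ replicate 3. The 7 other Igkv genes that fell were Igkv1-133, Igkv1-135, Igkv2-109, Igkv3-2, Igkv10-95, Igkv12-46 and Igkv14-111. Members of a V gene family are near copies of one another, so probe sets can read each other's transcripts and the 24 falls are not 24 independent measurements. Of 117 heavy chain variable genes 0 passed limma's test, and their median change was -0.03. At an unadjusted p under 0.05, 5 were higher and 5 lower, beside 8.64% and 4.87% of all genes.

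The 15 largest rises included Cpt1a, Pemt, Acer2, Atp10a and Ak4. Cpt1a, which encodes the carnitine transferase that admits fatty acids to mitochondrial oxidation, read 8.36, 8.19 and 8.24 after IFNβ and 7.76, 7.66 and 7.78 with vehicle (0.53 ± 0.07, adjusted p = 0.0046). Pemt, which makes phosphatidylcholine from phosphatidylethanolamine, read 7.83, 7.31 and 7.76 against 6.97, 6.98 and 6.80 (0.72 ± 0.11, adjusted p = 0.015). Acer2, a Golgi ceramidase, read 9.48, 9.34 and 9.56 against 8.95, 8.80 and 9.05 (0.53 ± 0.08, adjusted p = 0.0086). The cultures did not overlap in any of these genes. The calls of Cpt1a and Acer2 held without any 1 array, and that of Pemt was lost without IFNβ replicates 1 and 3 and vehicle replicate 3. Atp10a, a phospholipid flippase, rose by 0.47 ± 0.06 (adjusted p = 0.0049) and Ak4, a mitochondrial adenylate kinase, by 0.52 ± 0.10 (adjusted p = 0.035), whose call was lost for 7 of the 12 arrays. Of 19 genes of lipid uptake and droplets, Cpt1a was the 1 that rose and Cd36 the 1 that fell (10.5%, median 0.02), beside 1.15% of all genes.

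Other rises fell outside these groups. Dap, the death-associated protein, read 11.16, 11.05 and 11.07 after IFNβ and 10.24, 10.34 and 10.43 with vehicle (0.76 ± 0.11, adjusted p = 0.01), a 1.69-fold higher signal, and its call was lost without IFNβ replicate 1. Gca, which encodes the calcium-binding protein grancalcin, read 8.28, 8.29 and 8.45 against 7.55, 7.79 and 7.58 (0.70 ± 0.09, adjusted p = 0.0049) and kept its call throughout. Il33, a cytokine of the interleukin 1 family, read 8.52, 8.13 and 8.23 against 7.64, 7.47 and 7.80 (0.66 ± 0.11, adjusted p = 0.018). The groups stood apart for all 3, though the call of Il33 was lost without IFNβ replicate 1, vehicle replicate 1 or vehicle replicate 2. Mt1, a metal-binding metallothionein, read 12.59, 12.42 and 12.30 against 11.73, 11.80 and 11.96 (0.61 ± 0.11, adjusted p = 0.027), and its call was lost for 5 arrays of 30s cells, all but IFNβ replicate 3. Uaca (0.57), Zfp563 (0.52) and Fam229b (0.48) rose and kept their calls without any 1 array.

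Interferon-stimulated genes moved in both directions 6 days after the cytokine. Of 52 measured, 2 rose (Xaf1 and Ifih1) and 2 fell (Samd9l and Sp100), which is 7.69% beside 1.15% of all genes, and the list's median change was 0.02 beside 0.01 over all genes. At an unadjusted p under 0.05, 10 of the 52 were higher and 4 lower, both larger shares than the 8.64% and 4.87% of all genes. Of the 52, 23 had means under 6, beside 57.4% of all genes. Mx1, whose promoter drives the Cre transgene, read 4.67, 4.51 and 4.60 after IFNβ and 4.55, 4.59 and 4.65 with vehicle. Isg15, the ubiquitin-like modifier, read 4.86, 4.98 and 5.21 against 4.84, 4.81 and 5.07. The antiviral gene Ifit1 read 5.29, 5.41 and 5.10 against 5.13, 5.20 and 5.57, and the transcription factor gene Irf7 read 4.90, 4.84 and 4.77 against 4.85, 4.82 and 4.78. These 4 genes overlapped between the groups, with changes of 0.00, 0.11, -0.03 and 0.02 and adjusted p-values from 0.69 to 0.99. Their means over the 6 arrays lay under the median of all genes, which was 5.46 to 5.49 on these arrays.

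Xaf1, which encodes an antagonist of the apoptosis inhibitor XIAP, read 9.43, 9.12 and 9.25 after IFNβ and 8.84, 8.92 and 8.77 with vehicle (0.43 ± 0.07, adjusted p = 0.019). Samd9l, an interferon-induced restrictor of cell growth and viruses, read 9.43, 9.65 and 9.87 against 10.35, 10.60 and 10.53 (-0.85 ± 0.11, adjusted p = 0.0061). Sp100, a component of nuclear PML bodies, read 10.26, 10.21 and 10.30 against 10.42, 10.54 and 10.55 (-0.25 ± 0.05, adjusted p = 0.035). The groups did not overlap in any of them. The call of Samd9l held without any 1 array, whereas that of Xaf1 was lost for 4 arrays and that of Sp100 for 7. The RefSeq promoters of Xaf1, Samd9l and Sp100 hold 0 matches to the motif.

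Among 21 genes of the interferon receptor and its signalling, Ifnar2 rose and Ptpn6 fell (9.52%, median 0.04), beside 1.15% of all genes. Ifnar2 read 11.53, 11.41 and 11.34 against 11.08, 11.08 and 11.17 (0.32 ± 0.05, adjusted p = 0.018), and leaving out 1 array ended its call for 4 of the 12. The values of Ifnar1 (0.15), Stat2 (0.22) and Irf9 (0.14) did not pass. Of 17 genes of MHC class I and peptide processing, 2 rose and 0 fell (11.8%, median 0.07), beside 1.15% of all genes. H2-K1, a classical class I heavy chain, read 10.21, 10.14 and 10.21 against 9.97, 9.88 and 9.93 (0.26 ± 0.05, adjusted p = 0.048). Tap1, a subunit of the peptide transporter, read 7.36, 7.38 and 7.42 against 7.19, 7.21 and 7.18 (0.19 ± 0.04, adjusted p = 0.036). Both were higher in every treated culture, and both calls were lost for 10 of the 12 arrays left out. Both were also lost after quantile normalisation and after cyclic loess, and that of Tap1 with robust moderation. Psmb8, an immunoproteasome subunit, did not pass (0.27, adjusted p = 0.052). Of 11 genes of MHC class II presentation, 1 fell (9.09%, beside 1.15% of all genes) and 0 rose. That gene, H2-Ob, part of the H2-O regulator of peptide loading, fell by 0.29 on the log2 scale (adjusted p = 0.016). Its call was lost for 4 arrays.

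**Figure D3:**
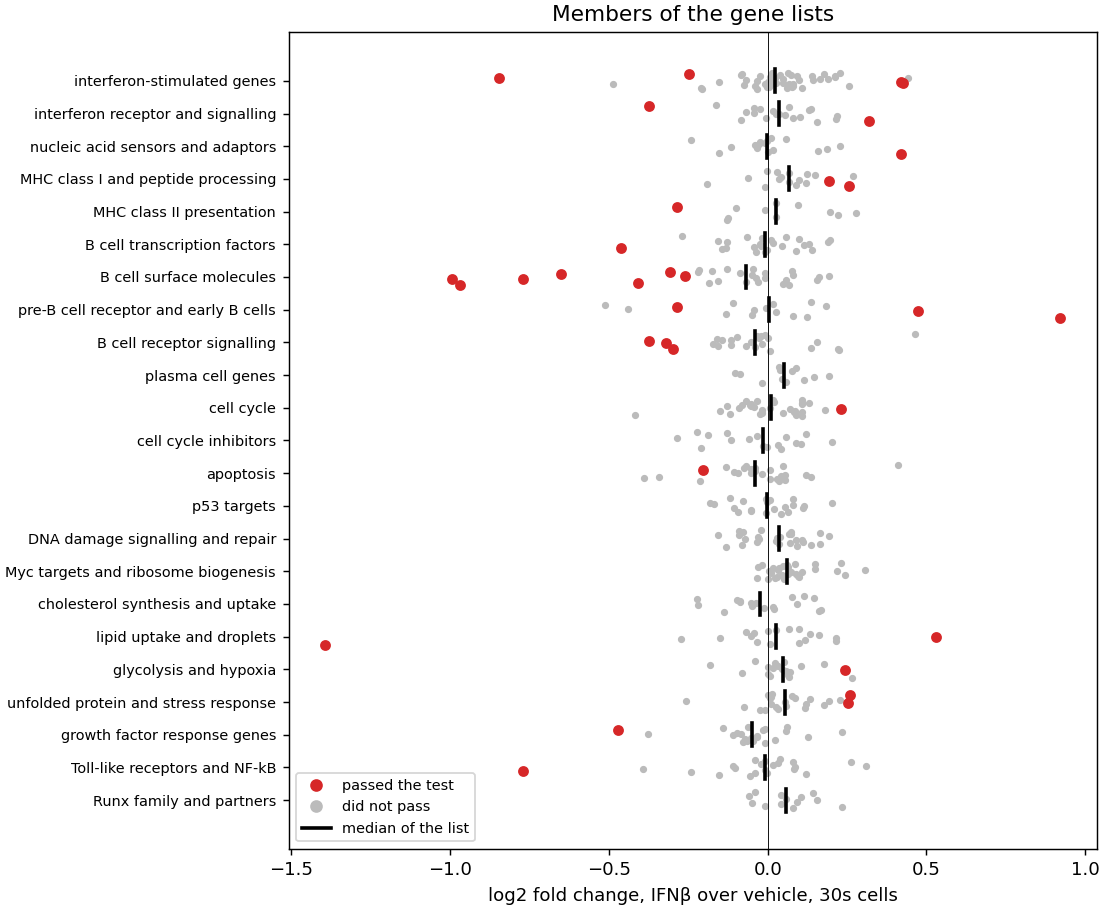
Log2 fold change of IFNβ over vehicle in 30s cells (horizontal) for the measured members of 23 gene lists, with members that passed the test in red, the others in grey and the list's median as a bar. Of 29 B cell surface molecules 7 fell, and the 4 red points among the 52 interferon-stimulated genes lie on both sides of 0.

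Lists of proliferation, cell death and stress are read against the 1.15% of all genes that changed, and against 8.64% higher and 4.87% lower at an unadjusted p under 0.05. The lists differ in brightness from all genes, of which 8207 of 30098 had means above 8. Means lay above 8 for 29 of 32 cell cycle genes, 28 of 29 Myc targets and 25 of 27 DNA damage genes. They did so for 10 of 25 apoptosis genes and 1 of 22 growth factor response genes. Of 32 cell cycle genes 1 rose (3.12%), the mitotic phosphatase gene Cdc25c (0.23, adjusted p = 0.042), and of 25 apoptosis genes 1 fell (4%), Casp8 (-0.20, adjusted p = 0.043). The calls of both were lost for 11 and 12 of the 12 arrays left out, that of Cdc25c also after quantile normalisation and cyclic loess and that of Casp8 with median centring. In 5 other lists limma called 0 genes, namely 21 p53 targets (2 higher and 2 lower at an unadjusted p under 0.05), 27 genes of DNA damage (5 and 1), 29 Myc targets and ribosome biogenesis genes (8 and 0), 17 cell cycle inhibitors (1 and 5) and 18 cholesterol genes (2 and 2). Myc itself read 14.83, 14.78 and 14.74 after IFNβ and 14.68, 14.72 and 14.76 with vehicle (0.06), and Cdkn2a changed by -0.01. The values of neither were separate between the groups. The list of the unfolded protein and stress response had 2 rises of 23, the asparagine synthetase gene Asns (0.25, adjusted p = 0.046) and the thioredoxin reductase gene Txnrd1 (0.26, adjusted p = 0.029), whose calls were lost for 10 and 5 arrays. Of 20 glycolysis and hypoxia genes Pgam1 rose (0.24, adjusted p = 0.033, lost for 7 arrays). The calls of Asns, Txnrd1 and Pgam1 were also lost after quantile normalisation and after cyclic loess. In the list of 22 growth factor response genes, Spry2, an inhibitor of receptor tyrosine kinase signalling, fell by 0.47 on the log2 scale (adjusted p = 0.0068) and kept its call throughout.

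Runx1 was not excised by design. It read 8.34, 8.43 and 8.20 after IFNβ and 8.38, 8.15 and 8.19 with vehicle, with overlapping groups and a change of 0.08 ± 0.10 (adjusted p = 0.82). Its partner Cbfb changed by -0.01 (adjusted p = 0.98). Runx3 read 7.47, 7.45 and 7.43 against 7.24, 7.20 and 7.20, which did not overlap, with a change of 0.23 ± 0.06 that did not pass (adjusted p = 0.083). In 3s cells, in which the treatment is used to remove Runx1, its probe set read 7.69, 7.93 and 8.03 after IFNβ and 7.78, 7.92 and 8.0 with vehicle, a change of -0.02 (adjusted p = 0.99). Where its probes lie relative to the floxed part is unknown here, so its level is no check of excision in either line. Of 13 genes of the Runx family and its partners, limma called 0, and 3 had an unadjusted p under 0.05, all higher. At that p 8.64% of all genes were higher and 4.87% lower. Means lay above 8 for 9 of the 13.

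The B lineage label was matched by the 8 measured markers of that lineage, all with means above 8 on the log2 scale. Means under 6 were found for markers of T cells (9 of 9), NK cells (7 of 7) and myeloid cells (12 of 14). The same held for markers of erythroid cells and platelets (4 of 5) and of stroma and endothelium (8 of 10). The remaining myeloid markers were Cd68 and Flt3. A mean above 8 was found for 1 myeloid marker and for 1 marker of stroma and endothelium. Flt3 was the 1 gene of these 5 lists that passed. The summed linear level of the 14 myeloid markers was 952 to 1051 after IFNβ and 1070 to 1188 with vehicle. The part of other cell types in the rise of Flt3 was not tested.

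The changed genes were spread unevenly over the chromosomes. Chromosome 19 held 33 and chromosome 3 held 29 of the 196 rises, which is 3.88% and 2.06% of the genes measured there beside 0.651% of all genes. Over genes with a mean above 8, the median change was 0.15 on chromosome 19 and 0.12 on chromosome 3, beside 0.05 over the 8207 such genes. The per-culture medians on chromosome 19 were 0.19, 0.13 and 0.14 after IFNβ, and on chromosome 3 they were 0.14, 0.12 and 0.10. The vehicle cultures lay between -0.02 and 0.02 on both. Chromosome 6 held 32 of the 150 falls (1.93% of its genes), of which 24 were Igkv genes. Chromosome 1 held 13 falls (0.797%) and 2 rises (0.123%), beside 0.498% and 0.651% of all genes, and its median was 0.00. Genes are not replicates, so no test was made.

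**Figure D4:**
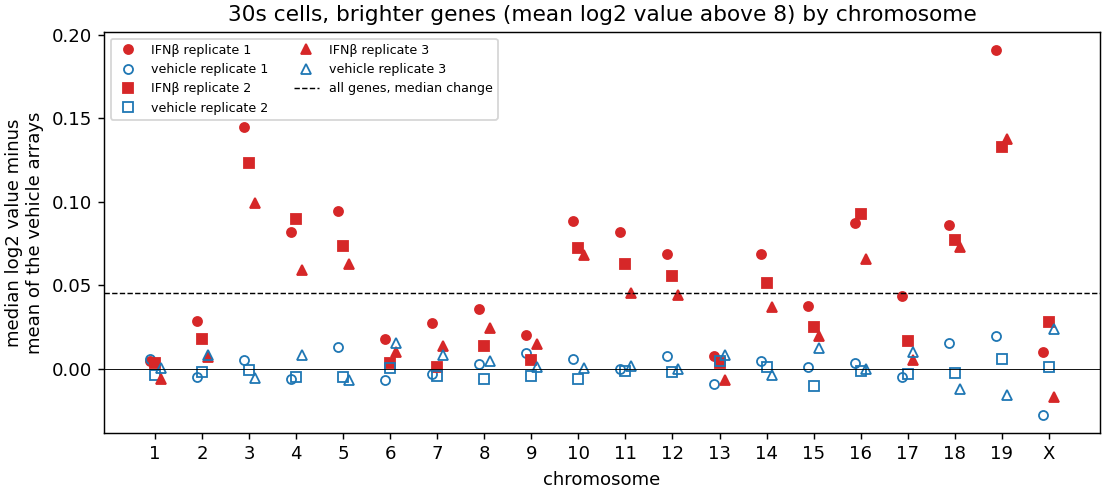
Median log2 value of genes with a mean above 8, minus the mean of the vehicle arrays, for each array of 30s cells by chromosome, with IFNβ filled and vehicle open. The treated arrays lie highest on chromosomes 19 and 3 and near the vehicle arrays on chromosomes 1, 13 and X.

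The X chromosome held 16 falls and 4 rises, 0.866% and 0.217% of its 1847 genes beside 0.498% and 0.651% of all genes, while the median over its brighter genes was 0.01. Several were among the largest falls. Maoa, the mitochondrial amine oxidase, read 8.40, 9.05 and 9.25 after IFNβ and 9.90, 10.01 and 9.82 with vehicle (-1.01 ± 0.16, adjusted p = 0.017). Enox2, a cell surface NADH oxidase, read 7.29, 7.28 and 7.69 against 8.34, 8.39 and 8.41 (-0.96 ± 0.10, adjusted p = 0.0018). Usp11, a deubiquitinase, read 6.78, 6.91 and 7.17 against 7.85, 7.76 and 7.79 (-0.85 ± 0.10, adjusted p = 0.0031). In all 3 the highest treated culture was replicate 3 and lay below every vehicle culture. Tceal9 (-0.98), the zinc finger gene Zfp182 (-0.82), Bhlhb9 (-0.82), Egfl6 (-0.74) and the kinase gene Stk26 (-0.40) fell as well.

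Xist, the non-coding RNA that coats the inactive X chromosome, and its antisense partner Tsix were also lower. Xist read 14.05, 14.05 and 14.28 after IFNβ and 14.87, 14.71 and 14.92 with vehicle (-0.71 ± 0.11, adjusted p = 0.015). Tsix read 7.52, 7.66 and 7.74 against 8.35, 8.11 and 8.61 (-0.72 ± 0.11, adjusted p = 0.012). Both groups stood apart for both. Xist and Tsix overlap on opposite strands, and the sources used here do not give the strand that their probe sets read. In 3s cells with vehicle Xist read 6.59, 6.62 and 6.49. The calls of 7 of the 16 X-linked falls held without any 1 array. Those of Maoa (3 arrays, the vehicle replicates), Xist (3), Tsix (IFNβ replicate 1) and Bhlhb9 (4) were lost for some.

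The response of 30s cells was set beside that of 3s cells, in which the same treatment is used to remove Runx1. In 3s cells 307 genes changed (1.02%), 30 of them also in 30s cells, 19 in the same direction and 11 in opposite directions. The difference between the lines, tested itself, passed for 307 genes (1.02%), of which 125 had also changed in 30s cells (49 higher and 76 lower there). The lines differ in origin as well as in Runx1, and these cannot be told apart. Cd36 changed by -1.39 in 30s cells and by 0.05 in 3s cells, where it read 14.15 to 14.32 (difference -1.44, adjusted p = 0.0013). Cd86 changed by -0.99 and 0.10 (difference -1.10, adjusted p = 0.0033). For Ms4a1 (-0.97 and -0.39) and Cd180 (-0.77 and -0.36) the difference did not pass (adjusted p = 0.21 and 0.20).

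Of the genes that moved in opposite directions, Brwd1, which encodes a bromodomain protein of chromatin, had the largest difference. It read 6.41, 6.72 and 6.81 after IFNβ and 7.46, 7.31 and 7.26 with vehicle in 30s cells (-0.70 ± 0.09, adjusted p = 0.0066), while in 3s cells it rose by 1.85 (adjusted p = 3.7e-06). The difference was -2.55 (adjusted p = 9.4e-06). Trp53i11, a p53-inducible gene, changed by -0.62 and 0.67, Timd2, a ferritin receptor of the TIM family, by -0.53 and 0.64, and P2rx3, an ATP-gated channel, by -0.55 and 0.81, each past the test in both lines. In all 4 genes the treated and vehicle cultures stood apart in both lines. Leaving out 1 array ended the 30s call of P2rx3 for 10 of the 12 arrays and of Timd2 for 3 (IFNβ replicate 1 and vehicle replicates 2 and 3), and neither that of Brwd1 nor of Trp53i11. The genes that moved alike in both lines included the secreted EGF-repeat protein gene Egfl6 (-0.74 and -1.26), Enpep (0.53 and 0.82) and Prkcb (-0.32 and -0.68).

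**Figure D5:**
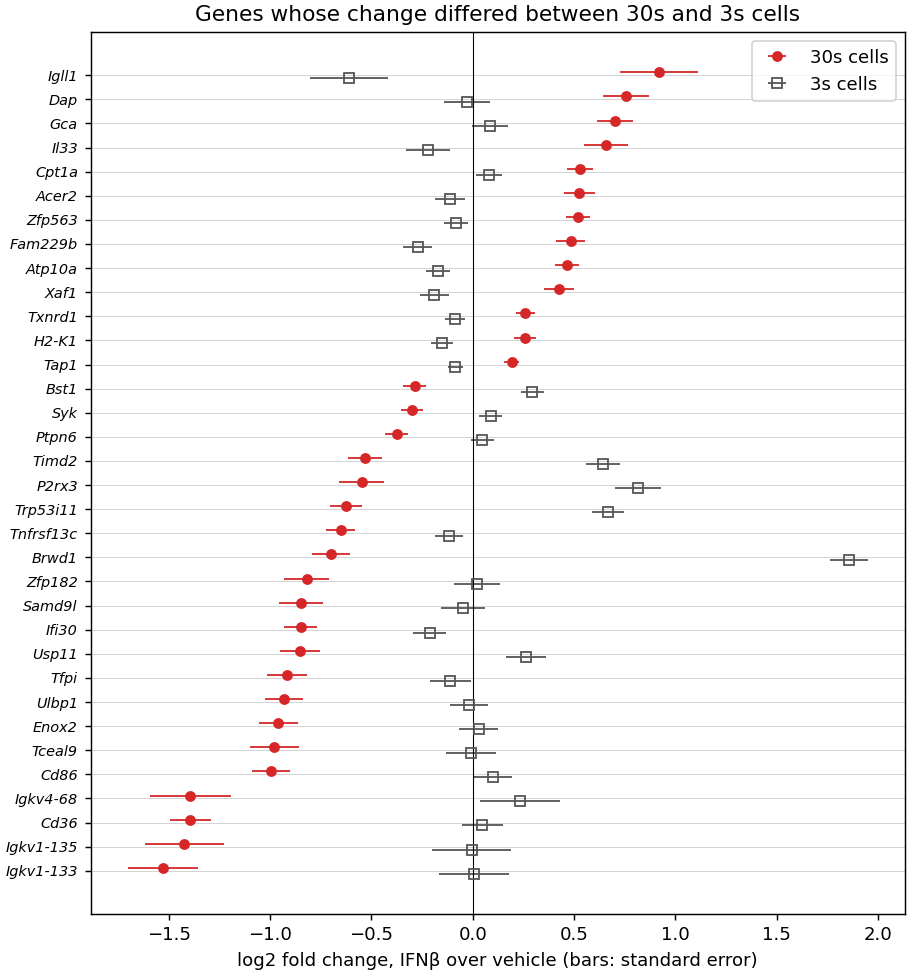
Log2 fold change of IFNβ over vehicle with its standard error in 30s cells (filled circles) and 3s cells (open squares) for the 34 named genes that changed in 30s cells and whose difference between the lines passed the test. Brwd1, P2rx3, Trp53i11, Timd2 and Bst1 lie on opposite sides of 0 and passed the test in both lines. Cd36 lies at -1.39 and 0.05.

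Among further genes whose calls held without any 1 array, chosen after their values were seen, were Il2ra, the alpha chain of the interleukin 2 receptor (-0.62, adjusted p = 0.0016), the meiotic cohesin gene Stag3 (-0.59, adjusted p = 0.00096), the kinase gene Lrrk2 (-0.56, adjusted p = 0.0016) and Igf2r, the mannose 6-phosphate receptor of lysosomal sorting (-0.70, adjusted p = 0.0081). The lysosomal protease gene Ctsz fell by 0.49 on the log2 scale and the intermediate filament gene Vim by 0.28. Among the rises were Fermt3, the integrin activator kindlin-3 (0.41, adjusted p = 0.0031), and the glutathione reductase gene Gsr (0.32, adjusted p = 0.0066).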

How the data were processed

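RNA of 12 cultures was read on Affymetrix GeneChip MTA 1.0 arrays. The deposited values are log2 intensities that the authors made by RMA, and per the labels' processing notes Affymetrix Expression Console 1.4 was used. The sources used here do not give the genome build of that annotation. The 72688 probe sets comprised 30638 with 1 gene symbol, 2176 with more, 33142 unnamed here and 6732 controls. After 330 symbols were updated, each of 30098 genes was read by its brightest single-symbol probe set (mean of 12 arrays). Of the genes placed in RefSeq (GRCm38.p6), 99.5% had the same chromosome in the probe set's name. Shared probe sets were not used, and some genes are not reported here.

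The values were fitted in R 4.3.3 with limma 3.58.1 with a mean for each of the 4 groups, 8 residual and 3.15 prior degrees of freedom, and two-sided moderated tests and Benjamini-Hochberg adjustment over all genes. The number of arrays limits the precision, and the median SD of a gene between cultures was 0.07 in both groups. The fit was tested on simulated data. Array replicate numbers were checked, and the main fit does not pair the cultures.

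The members, lists, alternatives and named genes were chosen with earlier results of these data known. Named genes were the 15 largest rises and falls whose groups do not overlap (leaving out predicted genes, small RNAs, pseudogenes and immunoglobulin V genes), the 3 largest V gene changes, up to 4 members of each list, the 6 largest differences between the lines and up to 6 genes changed in both, and 13 genes set by name. Alternatives were a fit of 6 arrays, the replicate block, array weights, the methods' t-test, an intensity trend with robust moderation, other normalisations, leaving out dim genes, other uses of the probe sets, a fold threshold and leaving out each array.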

Additional observations from a re-analysis of the deposited data

Results flagged for a closer look

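The effect of IFNβ differed between 30s and 3s cells, by limma's test of the difference itself (Benjamini-Hochberg over all genes), for 34 of the named genes that changed in 30s cells. The differences below are the log2 change in 30s cells minus that in 3s cells, with no explanation offered. Among surface, secreted and lysosomal proteins they were -1.44 for Cd36, -1.10 for Cd86, -0.91 for Ulbp1, -0.80 for Tfpi, -0.64 for Ifi30, -0.54 for Tnfrsf13c and -0.58 for Bst1. For signalling genes they were -0.42 for Ptpn6 and -0.39 for Syk. For X-linked genes they were -0.97 for Tceal9, -0.99 for Enox2, -1.12 for Usp11 and -0.84 for Zfp182. The V genes Igkv1-133, Igkv1-135 and Igkv4-68 had differences of -1.54, -1.42 and -1.63.

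Of the interferon-linked genes, Samd9l had a difference of -0.80, Xaf1 of 0.62, H2-K1 of 0.41 and Tap1 of 0.28. Genes that rose in 30s cells had differences of 1.53 for Igll1, 0.79 for Dap, 0.62 for Gca, 0.88 for Il33, 0.45 for Cpt1a, 0.64 for Acer2, 0.60 for Zfp563, 0.76 for Fam229b, 0.64 for Atp10a and 0.35 for Txnrd1. Igll1, Dap, Gca, Il33 and Zfp563 read between 4.23 and 5.55 on all arrays of 3s cells. Opposite directions, past the test in both lines, were found for Brwd1 (-2.55), P2rx3 (-1.36), Trp53i11 (-1.29) and Timd2 (-1.18). The same held for Bst1, listed above, which changed by -0.29 in 30s cells and by 0.29 in 3s cells.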

How the results depend on the processing

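The count of changed genes (346, with 196 higher and 150 lower) stayed within 1.5 times under array weights (221 higher, 159 lower), median centring (246 and 133) and intensity trend with robust moderation (184 and 146). Under the alternatives run, 0 called results turned direction. Fewer genes passed in the fits of 6 arrays, with the replicate block, by the methods' t-test and with a further threshold. The 6 arrays alone gave 0 genes, the replicate block 95 (24 higher, 71 lower), the block on 6 arrays 0 (0 and 0), the methods' t-test 1 (0 and 1) and the study's fold threshold added to the test 204 (86 higher). Quantile normalisation gave 117 higher, cyclic loess 106 and all probe sets tested alone 70 (204 lower). Leaving out dim genes, which tests fewer genes, gave 741 (497 higher, 244 lower). The cause of these shifts was not tested.

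Leaving out 1 array gave 97 to 354 changed genes, 30 to 206 higher and 67 to 148 lower. All 6 arrays of 30s cells moved the total by more than 1.5 times, with 97, 156 and 195 left without IFNβ replicates 1 to 3 and 209, 132 and 134 without vehicle replicates 1 to 3. Of the 3s arrays, IFNβ replicate 3 and vehicle replicate 1 did so for the higher genes (116 and 123). The lower genes were moved as much by IFNβ replicates 1 and 2 (67 and 80) and vehicle replicates 2 and 3 (87 and 85) of 30s cells. The count of genes whose effect differed between the lines (307) was 132 with the replicate block, 461 without dim genes and 184 to 241 with 1 array left out. The 16 X-linked falls, a count added after the data were seen, became 0 with the 6 arrays alone, 9 with the replicate block, 0 with the block on 6 arrays, 0 by the methods' t-test and 9 to 18 with 1 array left out.

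Same-numbered 30s cultures did not deviate together (correlations -0.002, 0.039 and -0.072), and the main fit does not pair them. The correlations cannot show whether same-numbered cultures were handled together. Of the values of single genes, lists and chromosomes under the alternatives, 1922 kept their side of the test or moved by less than the spread, 420 no longer passed, 2 passed newly and 203 moved by more. Leaving out dim genes left no T cell or NK cell marker, so those lists have no value there.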
